A study of Rattus norvegicus with 25 samples.

Results

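The comparison described here set rats given N-nitrosomethylbenzylamine (NMBA) together with alpha-tocopherol against rats given NMBA alone. Its members were the 5 arrays titled NMBA+Alpha-T and the 5 arrays titled NMBA, 10 of the 25 arrays of the series. All animals were male F344 rats, the tissue was esophageal epithelium, and each rat gave 1 array. The alpha-tocopherol rats received NMBA and the alpha form of vitamin E. The NMBA rats received NMBA with a normal diet. The other groups, of 5 rats each, received NMBA with delta-tocopherol, NMBA with a gamma-enriched tocopherol preparation, or a normal diet without NMBA (Control). The labels used here give no dose, route, age or time of sampling. The alpha-tocopherol and NMBA rats shared no slide: alpha rats 1 to 5 were on slide 1, NMBA rats 1 to 4 on slide 3 and NMBA rat 5 on slide 4, so slide and treatment cannot be told apart within these 10 arrays.

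NMBA is a nitrosamine that is activated to a DNA-alkylating agent in the rat esophagus and induces squamous tumours there. Alpha-tocopherol is the form of vitamin E that the liver's tocopherol transfer protein retains, and it breaks chains of lipid peroxidation in membranes. Interferon gamma from T and NK cells induces the chemokines Cxcl9, Cxcl10 and Cxcl11, which bind the receptor Cxcr3 on activated lymphocytes, and it also induces MHC class II genes through the transactivator Ciita.

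Values are log2 signals relative to the 75th percentile of their own array, so that 0 marks that percentile. Squamous markers stood high: of 12 markers tested of 13 listed, all but Krt5 and Ivl lay at or above the 96.6th percentile of the genes on each of the 10 arrays. The share of spots well above background was 77.0% to 79.8% in alpha-tocopherol rats and 70.6% to 74.99% in NMBA rats, which did not overlap. Among 3094 genes left out because their probes were dim on most arrays, the median difference was −0.78 and 90.7% were lower in alpha-tocopherol rats. Most probes near background thus read lower in the alpha-tocopherol rats, and dim genes are marked as such here. The part of slide or background in the dim genes' values was not tested.

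Of 12343 genes tested, 465 (3.77%) passed limma's moderated test at a Benjamini-Hochberg adjusted p under 0.05, 152 higher (1.23%) and 313 lower (2.54%) in alpha-tocopherol rats. At least 2-fold changes were fewer, 38 higher and 112 lower. The median difference over all genes was −0.03. The values of the 2 groups did not overlap in 566 genes (4.59%), of which 301 passed the test. Genes with the largest differences were named from those 301, so their lack of overlap follows from the choice. Leaving out 1 rat moved the count by over 1.5 times in 4 cases, with 273 genes when alpha rat 4 was left out and 255, 230 and 193 genes when NMBA rat 1, rat 2 or rat 3 was. Fitted on these 10 arrays alone, without the spread of the other groups, 120 genes were called, and 31 of the 57 called genes named here did not pass. With slide as a fixed block, these groups are linked only through delta rats on slides 1 and 2 and Control rats on slides 2 and 3. Control rat 1 was the only Control rat on slide 2, and NMBA rat 5, alone on slide 4, adds nothing to that link. Under this block 1 gene was called, and none of the calls described below passed. That gene, the lipid phosphatase Plpp1, was named after its values were seen, and it stood at 3.46 ± 0.41 with the block but at 0.30 ± 0.46 without it (limma adjusted p = 0.791).

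**Figure D1:**
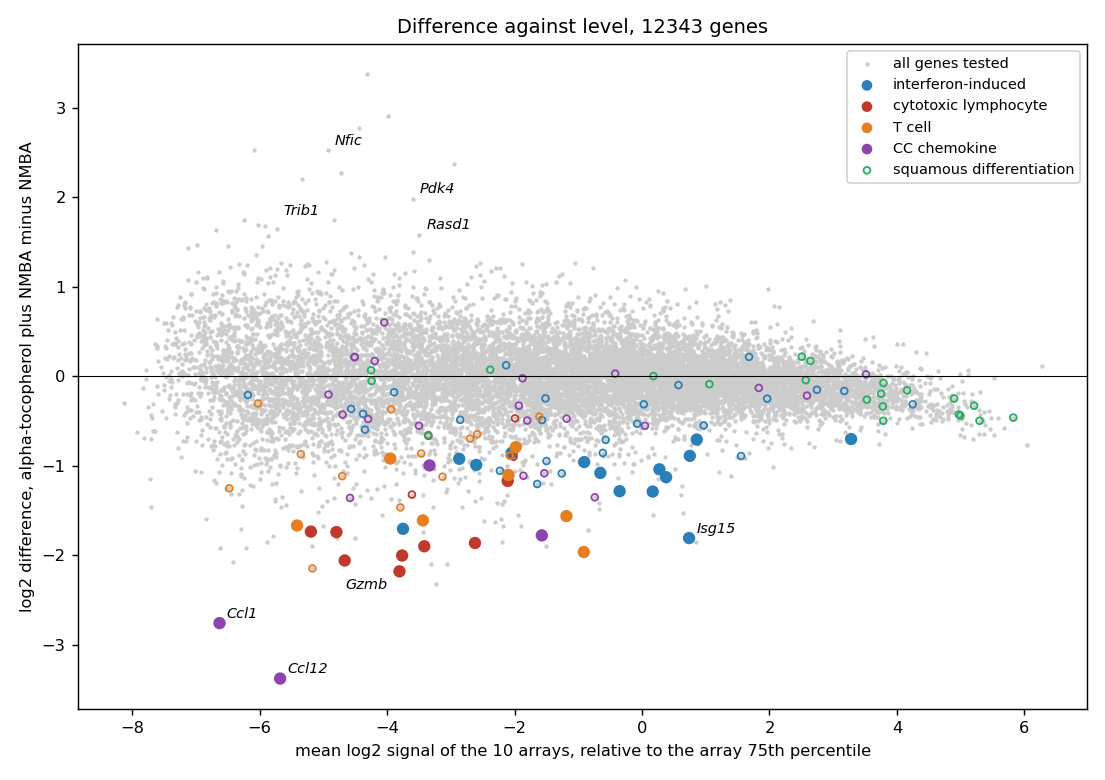
The log2 difference between alpha-tocopherol plus NMBA rats and NMBA rats (y axis) is plotted against the mean log2 signal of the 10 arrays (x axis) for 12343 genes, with members of 5 gene lists in colour, filled where they passed the test. Interferon-induced, cytotoxic, T cell and CC chemokine genes lie mostly below 0 over a wide range of signal, Ccl1 and Ccl12 lie near the dim end, and no squamous differentiation gene is filled.

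The genes that fell included chemokines, cytotoxic lymphocyte genes and interferon-induced genes. Promoters of 3 of them that hold an interferon-stimulated response element, the sequence bound by interferon regulatory factors, are shown to give the regulatory context of that group. They are RefSeq sequences on the GRCr8 assembly, 5′ to 3′ on the gene's strand, from 250 bases before the start to 25 bases after it. Capitals mark the motif GAAANNGAAA or its reverse complement. Cxcl10 lies on chr14:15988816-15989090 (+ strand), Rsad2 on chr6:48788096-48788370 (− strand) and Psmb8 on chr20:4657007-4657281 (− strand).
Cxcl10: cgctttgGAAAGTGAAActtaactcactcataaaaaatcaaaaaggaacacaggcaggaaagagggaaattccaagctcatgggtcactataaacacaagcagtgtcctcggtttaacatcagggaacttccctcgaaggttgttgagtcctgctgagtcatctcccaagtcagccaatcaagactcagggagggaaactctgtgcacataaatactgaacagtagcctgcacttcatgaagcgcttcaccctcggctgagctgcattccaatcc
Rsad2: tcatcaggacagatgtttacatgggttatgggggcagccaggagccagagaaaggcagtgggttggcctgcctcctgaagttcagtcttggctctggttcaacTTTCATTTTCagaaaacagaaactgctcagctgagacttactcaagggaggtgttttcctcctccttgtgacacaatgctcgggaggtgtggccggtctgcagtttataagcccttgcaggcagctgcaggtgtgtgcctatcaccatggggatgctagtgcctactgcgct
Psmb8: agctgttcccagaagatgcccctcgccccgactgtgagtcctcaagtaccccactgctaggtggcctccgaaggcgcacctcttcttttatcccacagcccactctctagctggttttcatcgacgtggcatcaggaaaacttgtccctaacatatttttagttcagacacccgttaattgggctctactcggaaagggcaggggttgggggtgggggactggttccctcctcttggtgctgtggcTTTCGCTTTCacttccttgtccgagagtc
The motif begins at position −243 in Cxcl10, −147 in Rsad2 and −4 in Psmb8, counted from the start. Both strands were searched in windows from 250 bases before to 50 bases after the start. The motif was found in 3.92% of 33469 promoters, in 312 of 10538 promoters (2.96%) of all genes tested and in 22 of 31 promoters (71.0%) of interferon-induced genes tested. It was found in 22 of 270 promoters (8.15%) of genes called lower and in 4 of 134 promoters (2.98%) of genes called higher. Those 22 include 9 of called interferon-induced genes. Motifs of the transcription factors NF-κB and glucocorticoid receptor were searched too. The NF-κB motif was found in 22.96% of promoters of genes called lower, 24.63% of those called higher and 24.63% of genes tested. It was found in 9 of 15 promoters of NF-κB genes tested and 1 of 5 called. The glucocorticoid motif was found in 0 promoters of called genes and in 0 of 20 promoters of glucocorticoid-induced genes tested. A match is a description of the sequence and shows no binding.

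CXCR3 ligands stood lower in alpha-tocopherol rats. Cxcl11 was at −3.54, −3.41, −3.73, −3.81 and −3.32 in alpha-tocopherol rats 1 to 5 and at −0.96, −1.81, −1.92, −2.66 and −0.99 in NMBA rats 1 to 5. It fell by 1.89 ± 0.43 log2 units (SE; 3.71-fold, limma adjusted p = 0.017), and the groups did not overlap. Cxcl10 was at −2.50, −2.40, −2.20, −3.37 and −1.81 in alpha-tocopherol rats and 0.27, −0.28, −0.93, −1.61 and −0.28 in NMBA rats. The lowest NMBA rat, rat 4, lay only just above the highest alpha-tocopherol rat, rat 5, and the fall was 1.89 ± 0.53 (limma adjusted p = 0.0469). Cxcl9 was at 0.01, 0.32, −0.32, −1.15 and 0.77 in alpha-tocopherol rats and 2.39, 1.68, 1.76, 0.65 and 2.40 in NMBA rats, and fell by 1.85 ± 0.51 (limma adjusted p = 0.0444) with NMBA rat 4 inside the alpha-tocopherol range. Of 10 fits that each left out 1 rat, Cxcl11 passed in 10. Cxcl10 and Cxcl9 passed in 2 each, those without alpha rat 5 or NMBA rat 4, with values between −2.15 and −1.66 for Cxcl10 and between −2.13 and −1.58 for Cxcl9. The receptor Cxcr3 was at −1.45 ± 0.42 and did not pass (limma adjusted p = 0.0518), although it passed with normexp (−1.29), so 3 of the 4 genes of this axis were called lower against 2.54% of all genes. Cxcl9 also did not pass on the 10 compared arrays alone (limma adjusted p = 0.0550). The Cxcl9 and Cxcl11 promoters held no match to the interferon motif.

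Among CC chemokines and their receptors, 4 of 25 members tested (30 listed) were called lower and 0 higher, with a median of −0.47. Ccl12, which attracts monocytes in mice, was at −6.98, −8.65, −6.61, −7.84 and −6.76 in alpha-tocopherol rats and −4.03, −3.94, −2.71, −4.38 and −4.91 in NMBA rats. Its probe was well above background on only 1 of 5 alpha-tocopherol arrays and on 5 of 5 NMBA arrays. The groups did not overlap, and the difference, which rests on readings near background, was −3.37 ± 0.61 (limma adjusted p = 0.00475), against −1.61 with normexp background correction. Ccl1, the ligand of Ccr8, was well above background on 0 alpha-tocopherol arrays and 4 of 5 NMBA arrays. With the main processing Ccl1 was at least 5.35-fold lower in alpha-tocopherol rats, measured against the lowest signal well above background (means −8.01 ± 0.55 in alpha-tocopherol rats and −5.25 ± 0.91 in NMBA rats; SD, n = 5; limma adjusted p = 0.0035). With normexp it was −0.77, a smaller fall than that bound. Ccl5, a T cell chemokine, fell by 1.78 ± 0.42 and Ccl22, a ligand of Ccr4, fell by 0.99 ± 0.22. Ccl5 did not pass without alpha rat 4 (−1.36), NMBA rat 1 (−1.60), NMBA rat 2 (−1.67) or NMBA rat 3 (−1.65). Ccl22, whose groups did not overlap, passed in each of the 10 fits but not on the 10 compared arrays alone (limma adjusted p = 0.0701). Ccl5 did not pass on those arrays alone either (limma adjusted p = 0.126).

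Cytotoxic lymphocyte genes, which encode granule proteases, the pore protein perforin and their partners, had a median of −1.74 over 12 members tested of 19 listed, and 8 were called lower and 0 higher. Granzyme B (Gzmb) was at −4.36, −4.66, −4.71, −6.12 and −4.63 in alpha-tocopherol rats and −1.99, −2.74, −2.77, −4.20 and −1.90 in NMBA rats. NMBA rat 4 was the lowest of its group yet stood above all alpha-tocopherol rats, and alpha rat 4 was the lowest of all 10. Gzmb fell by 2.18 ± 0.46 (4.52-fold, limma adjusted p = 0.0109), and granzyme C (Gzmc) by 2.0 ± 0.38 (limma adjusted p = 0.00685), also without overlap. Cathepsin W (Ctsw), a protease of cytotoxic lymphocytes, fell by 1.90 ± 0.42 and granzyme K (Gzmk) by 2.06 ± 0.57. Gzmb, Gzmc and Ctsw passed in all 10 fits that left out a rat, whereas Gzmk passed in 3 (−1.41 without alpha rat 4, its lowest value). On the 10 compared arrays alone Ctsw and Gzmk did not pass (limma adjusted p = 0.0705 and 0.190). Normexp gave −1.55 for Gzmb and −1.21 for Gzmk. Gzmk was well above background on 4 of 5 alpha-tocopherol arrays and read −8.27 in alpha rat 4.

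T cell genes, which encode the antigen receptor complex and its co-receptors, were all below 0 in the 20 members tested of 25 listed, with a median of −1.01, and 7 were called lower and 0 higher. Cd3d, a receptor chain, was at −1.23, −1.65, −2.30, −3.21 and −1.07 in alpha-tocopherol rats and 0.75, 0.19, −0.17, −1.64 and 1.19 in NMBA rats. NMBA rat 4 lay within the alpha-tocopherol range, while the other 4 NMBA rats lay above it. Cd3d fell by 1.96 ± 0.46 (limma adjusted p = 0.019), the zeta chain Cd247 by 1.61 ± 0.38, the gamma chain Cd3g by 1.56 ± 0.38 and the co-receptor chain Cd8b by 1.67 ± 0.42. Cd3d and Cd247 did not pass without alpha rat 4 (−1.63 and −1.38) or without NMBA rat 1 (−1.79 and −1.50). Cd3g and Cd8b passed in 4 of 10 fits each, losing the call without alpha rat 2, 3 or 4 or NMBA rat 1, 3 or 5 (−1.32 to −1.54 for Cd3g and −1.49 to −1.64 for Cd8b). Cd8b, well above background on 4 of 5 alpha-tocopherol arrays, was −0.74 with normexp. Fitted on the 10 compared arrays alone, Cd3d, Cd247, Cd3g and Cd8b did not pass (limma adjusted p = 0.112, 0.124, 0.0837 and 0.0749). In whole tissue, fewer cells of a type and less RNA per cell cannot be told apart.

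**Figure D2:**
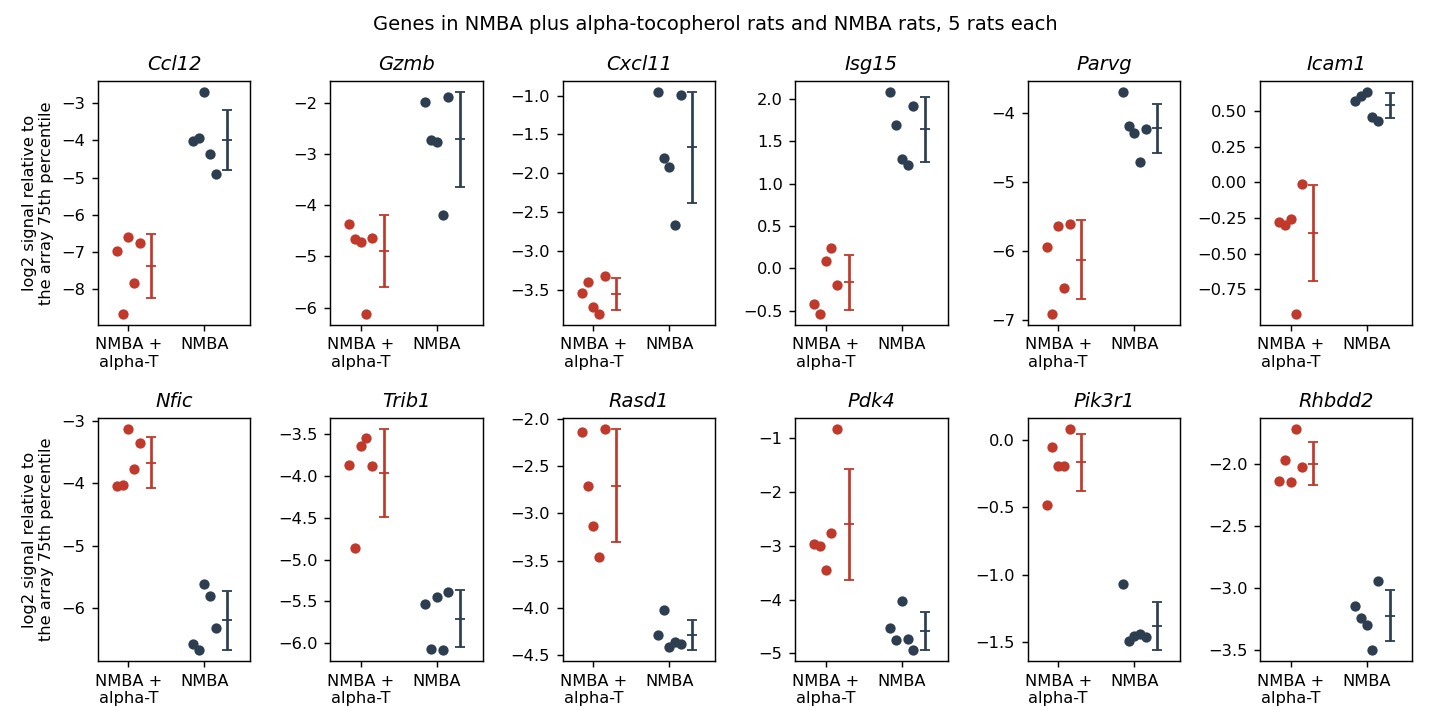
The log2 signal relative to the array's 75th percentile (y axis) is shown for 12 genes in each rat, with alpha-tocopherol plus NMBA at the left and NMBA at the right of each panel, and the mean and SD of 5 rats beside the points. The upper row holds genes that fell and the lower row genes that rose, and in each panel the points of the groups do not overlap.

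Interferon-induced genes had a median of −0.70 over 39 members tested of 46 listed. They were below 0 in 37, and 14 were called lower and 0 higher. Isg15, a ubiquitin-like protein, was at −0.42, −0.53, 0.09, 0.24 and −0.19 in alpha-tocopherol rats and 2.08, 1.69, 1.29, 1.22 and 1.92 in NMBA rats. The lowest NMBA rat lay almost 1 unit above the highest alpha-tocopherol rat, and Isg15 fell by 1.81 ± 0.30 (3.50-fold, limma adjusted p = 0.00303), passing in all 10 fits that left out a rat. The antiviral enzyme Rsad2 fell by 1.70 ± 0.40 (limma adjusted p = 0.0191), the transcription factor Irf1 by 1.29 ± 0.31 and the immunoproteasome subunit Psmb8 by 1.28 ± 0.29. Rsad2 did not pass without alpha rat 4 (−1.55) and Psmb8 did not pass without NMBA rat 3 (−1.19). Irf1 did not pass without alpha rat 4 (−0.98), NMBA rat 1 (−1.19) or NMBA rat 2 (−1.25). Irf1 was also not called on the 10 compared arrays alone (limma adjusted p = 0.122). The promoters shown above, those of Cxcl10, Rsad2 and Psmb8, thus all belong to genes called lower. The interferon motif was held by 9 of the 11 called members with a promoter.

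MHC class II genes had a median of −0.74, with all 12 members listed tested and below 0, and 6 called lower. The transactivator Ciita fell by 1.04 ± 0.24 (limma adjusted p = 0.019). The invariant chain Cd74 was at 3.78, 3.13, 3.20, 3.08 and 3.53 in alpha-tocopherol rats and 4.39, 4.11, 4.11, 3.84 and 4.07 in NMBA rats, without overlap, and fell by 0.76 ± 0.18. The peptide-loading subunits RT1-DMb and RT1-DMa fell by 0.79 ± 0.23 and 0.72 ± 0.20 (limma adjusted p = 0.049 and 0.0472), and passed in 3 and 2 of 10 fits that left out a rat. With quantile normalization Cd74 (−0.57), RT1-DMb (−0.70) and RT1-DMa (−0.63) did not pass. Fitted on the 10 compared arrays alone, Ciita, Cd74, RT1-DMb and RT1-DMa did not pass (limma adjusted p = 0.109, 0.0704, 0.229 and 0.201). Ciita did not pass without alpha rat 4 (−0.91) or NMBA rat 1 (−0.90), and Cd74 did not pass without alpha rat 2 (−0.71), alpha rat 4 (−0.69), NMBA rat 1 (−0.69) or NMBA rat 3 (−0.76).

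Myeloid lists also held calls. Of neutrophil and myeloid granule genes, 3 of 11 tested (21 listed) were called lower, against 2.54% of all genes, and the median was −0.62. Stfa3l1, a stefin-like inhibitor of cysteine proteases, was at −5.92, −4.22, −3.68, −4.11 and −3.86 in alpha-tocopherol rats and −2.47, −1.94, −1.83, −1.98 and −3.07 in NMBA rats. The groups did not overlap, alpha rat 1 was the lowest, and the fall was 2.10 ± 0.37 (limma adjusted p = 0.00387). The ficolin Fcnb, a lectin of innate immunity, fell by 2.09 ± 0.53 (limma adjusted p = 0.0283), passing in 4 of 10 fits that left out a rat. The cytokine Il1b fell by 1.59 ± 0.43 (limma adjusted p = 0.0412) and passed in 2 of them. Of macrophage genes, 2 of 20 tested were called lower, the Fc receptor Fcgr3a (−1.55 ± 0.44) and the lysosomal protein Laptm5 (−1.01 ± 0.26), and neither passed with normexp (−1.31 and −0.98). They passed in 2 and 4 of the 10 fits. Fitted on the 10 compared arrays alone, Fcnb, Il1b, Fcgr3a and Laptm5 did not pass (limma adjusted p = 0.0545, 0.0999, 0.158 and 0.143). None of 10 Langerhans and dendritic cell genes or 9 B and plasma cell genes tested were called, although all were below 0 (medians −0.43 and −0.52). Clec9a was at −1.36 ± 0.64, Cd86 at −0.85 ± 0.33 and Fcrla at −0.77 ± 0.33.

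Of 17 genes tested for NF-κB subunits and inflammatory targets (26 listed), 5 were called lower and 0 higher, and the median was −0.38. The adhesion molecule Icam1 was at −0.28, −0.30, −0.26, −0.92 and −0.01 in alpha-tocopherol rats and 0.57, 0.61, 0.63, 0.46 and 0.43 in NMBA rats. NMBA rats spanned only 0.43 to 0.63, and all alpha-tocopherol rats lay below 0. Icam1 fell by 0.89 ± 0.18 (limma adjusted p = 0.0105) and the survival gene Bcl2a1 by 1.33 ± 0.29 (limma adjusted p = 0.0144), and both passed in all 10 fits that left out a rat. The signalling adaptor Traf1 fell by 0.82 ± 0.21 and passed in 5 of those 10 fits. On the 10 compared arrays alone Bcl2a1 and Traf1 did not pass (limma adjusted p = 0.0687 and 0.138). The subunit Rela was at −0.49 ± 0.22 and the inhibitor Nfkbia at 0.07 ± 0.18, and neither passed.

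**Figure D3:**
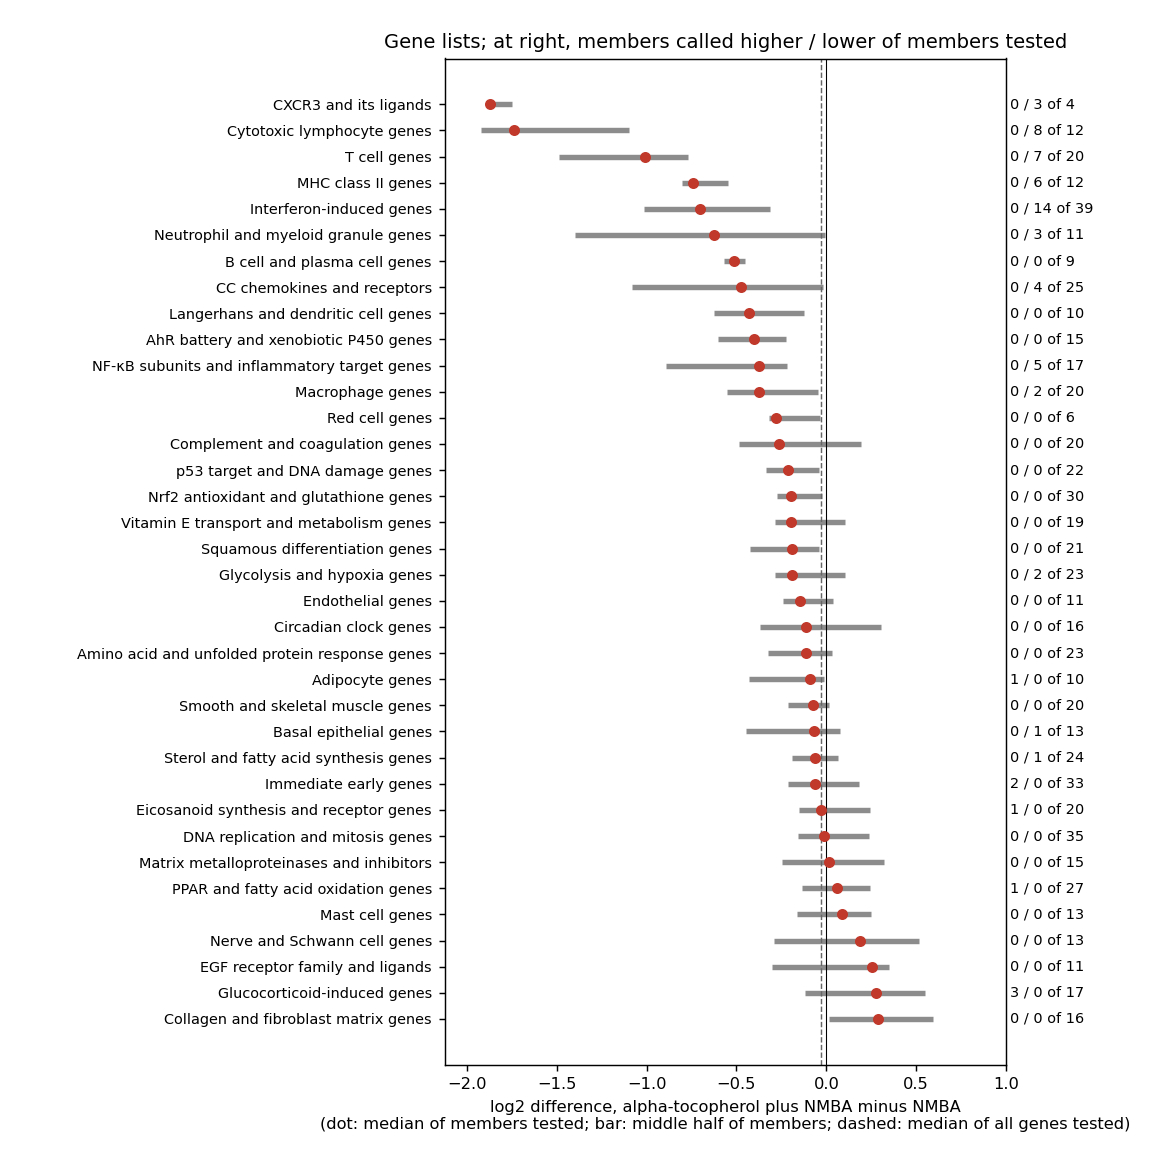
Each line is a gene list, with the median log2 difference between alpha-tocopherol plus NMBA rats and NMBA rats (dot), the interquartile range of its members (bar) and, at the right, the members called higher and lower of those tested. The CXCR3, cytotoxic, T cell, MHC class II and interferon lists have the lowest medians, and the basal epithelial and DNA replication lists lie near the median of all genes (−0.03).

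Other large falls were in single genes outside these lists. Parvg, a parvin of blood cells, was at −5.94, −6.91, −5.63, −6.53 and −5.62 in alpha-tocopherol rats and −3.70, −4.19, −4.30, −4.72 and −4.23 in NMBA rats. It fell by 1.90 ± 0.32 without overlap (limma adjusted p = 0.00303; −1.02 with normexp). Parvg was well above background on 4 of 5 alpha-tocopherol arrays. The uncharacterised C1h19orf47 fell by 1.67 ± 0.21 (limma adjusted p = 0.00023), and the glutathione transferase Gstm6 by 1.85 ± 0.42. Gipr, the receptor of the hormone Gip, fell by 1.63 ± 0.32, and the ubiquitin ligase Neurl1 by 1.15 ± 0.27. These 4 were well above background on all 10 arrays, and Gstm6 and Neurl1 did not pass without NMBA rat 3 (−1.72 and −1.04). Neurl1 was −0.39 with the mean of its probes, which did not pass, and on the 10 compared arrays alone Gipr, Gstm6 and Neurl1 did not pass (limma adjusted p = 0.0749, 0.0749 and 0.125). Defal1 (−2.07), Clec2e (−1.92) and Vom2r48 (−1.91) were also called lower, but their probes were well above background on 1, 1 and 2 alpha-tocopherol arrays and on 2, 3 and 5 NMBA arrays. With normexp they were −0.76, −0.57 and −0.61, each still past the test, and Defal1 did not pass without NMBA rat 3 (−1.92). Of the 313 genes called lower, 287 were well above background on all 10 arrays.

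The genes that rose included the transcription factor Nfic, at −4.05, −4.02, −3.13, −3.78 and −3.36 in alpha-tocopherol rats and −6.56, −6.67, −5.61, −5.80 and −6.32 in NMBA rats. Its probe was well above background on 5 of 5 alpha-tocopherol arrays but only 1 of 5 NMBA arrays. The groups did not overlap, and the difference, which rests on NMBA readings near background, was 2.52 ± 0.30 (limma adjusted p = 0.000204), against 1.36 with normexp. Trib1, a pseudokinase that directs proteins to degradation, was at −3.87, −4.87, −3.65, −3.56 and −3.88 in alpha-tocopherol rats and −5.54, −6.07, −5.45, −6.08 and −5.39 in NMBA rats. It rose by 1.74 ± 0.22 (limma adjusted p = 0.000282; 0.95 with normexp; above background on 3 of 5 NMBA arrays), without overlap and in all 10 fits that left out a rat. Pik3r1, a regulatory subunit of phosphoinositide 3-kinase, was at −0.48, −0.05, −0.20, −0.20 and 0.08 in alpha-tocopherol rats and −1.07, −1.49, −1.45, −1.44 and −1.46 in NMBA rats. Apart from NMBA rat 1, the NMBA values lay close together, and Pik3r1 rose by 1.21 ± 0.18 (limma adjusted p = 0.00114).

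Pdk4, the kinase that inhibits pyruvate dehydrogenase, was at −2.97, −3.003, −3.46, −2.76 and −0.83 in alpha-tocopherol rats and −4.52, −4.74, −4.02, −4.74 and −4.94 in NMBA rats. Alpha rat 5 stood far above its group, and the rise of 1.99 ± 0.52 (limma adjusted p = 0.0329) was 1.54 without that rat and did not pass. Pdk4 passed in 3 of the 10 fits, losing the call also without alpha rat 4 and without each NMBA rat (1.90 to 2.13). Rasd1, a dexamethasone-inducible Ras-like GTPase, was at −2.14, −2.71, −3.13, −3.46 and −2.11 in alpha-tocopherol rats and −4.28, −4.02, −4.41, −4.36 and −4.38 in NMBA rats. It rose by 1.58 ± 0.31 (limma adjusted p = 0.00736), and the NMBA rats spanned less than 0.5 unit. Dusp1, a phosphatase of MAP kinases, rose by 0.77 ± 0.21 (limma adjusted p = 0.0389), but did not pass with normexp (0.69) and passed in 3 of the 10 fits. Fitted on the 10 compared arrays alone, Pdk4 and Dusp1 did not pass (limma adjusted p = 0.0538 and 0.112). Pdk4, Rasd1 and Dusp1 were the 3 called, all higher, of 17 glucocorticoid-induced genes tested (median 0.27), against 1.23% of all genes called higher. Zbtb16, a transcription factor that glucocorticoids also induce, was at −3.02, −4.39, −4.30, −5.46 and −3.20 in alpha-tocopherol rats and −4.19, −4.53, −4.06, −4.61 and −4.92 in NMBA rats. Its groups overlapped and it did not pass (0.39 ± 0.42).

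Further rises included genes of varied function. The rhomboid-like Rhbdd2 rose by 1.23 ± 0.21 (limma adjusted p = 0.0035), the thioesterase Them4 by 1.21 ± 0.21 and the histone methyltransferase Ash1l by 1.21 ± 0.25. Sh3bgrl1 rose by 1.21 ± 0.26 and the cohesin regulator Pds5a by 1.57 ± 0.33. These 5 genes were named from called genes whose groups did not overlap, and each passed in all 10 fits. Pds5a was well above background on 1 NMBA array, was 0.59 with normexp and did not pass on the 10 compared arrays alone (limma adjusted p = 0.0722). Them4 was 0.74 with normexp. Edem3, which trims sugars from misfolded glycoproteins, and Lrrc58 were not well above background on any NMBA array. Edem3 was at least 2.18-fold higher (means −5.76 ± 0.13 in alpha-tocopherol rats and −7.22 ± 0.44 in NMBA rats; SD, n = 5; limma adjusted p = 0.01) and Lrrc58 at least 1.84-fold higher (limma adjusted p = 0.0284). Neither passed with normexp, where the rises of 0.46 and 0.35 were smaller than these bounds. Lrrc58 passed in 5 of the 10 fits. Of the 152 genes called higher, 117 were well above background on all 10 arrays and 9 on no NMBA array.

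Lipid and eicosanoid genes held single calls. Of all genes, 1.23% were called higher and 2.54% lower, so 1 call says little about a list. Pdk4 was the only call of 27 PPAR and fatty acid oxidation genes tested (median 0.06). Ptger4, a receptor of prostaglandin E2, rose by 1.14 ± 0.30 (limma adjusted p = 0.0362) as the 1 call of 20 eicosanoid genes. It was well above background on 2 of 5 NMBA arrays and was 0.46 with normexp, which did not pass. The lipase Lipe rose by 0.68 ± 0.18 as the 1 call of 10 adipocyte genes and did not pass with normexp (0.46). Ptger4 passed in 3 and Lipe in 2 of 10 fits that left out a rat. The glycolytic enzymes Pkm and Pfkp fell by 0.72 ± 0.20 and 0.46 ± 0.12, the 2 calls of 23 glycolysis and hypoxia genes (median −0.19). Neither held under quantile normalization (−0.67 and −0.36), Pkm was −0.27 with the mean of its probes, and they passed in 2 and 3 of the 10 fits. Fitted on the 10 compared arrays alone, Ptger4, Lipe, Pkm and Pfkp did not pass (limma adjusted p = 0.0837, 0.163, 0.0893 and 0.178).

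Epithelial and proliferation lists showed few or no calls, which is near the share of 3.77% called among all genes. None of 21 squamous differentiation genes tested (31 listed) passed, with a median of −0.19 and 16 below 0. The cross-linking enzyme Tgm1 was at −0.50 ± 0.16 (limma adjusted p = 0.0781). Of 13 basal genes, the basal keratin Krt5 was the 1 call, at 1.56, 1.52, 1.74, 1.91 and 1.29 in alpha-tocopherol rats and 2.13, 2.07, 2.24, 2.02 and 2.49 in NMBA rats. It fell by 0.59 ± 0.15 (limma adjusted p = 0.0301) without overlap, but did not pass when arrays were scaled to their median (−0.56), and passed in 4 of 10 fits that left out a rat. Krt5 also did not pass on the 10 compared arrays alone (limma adjusted p = 0.111). None of 35 DNA replication and mitosis genes passed (median −0.01; 18 below 0). The proliferation marker Mki67 was at −0.17 ± 0.33, Hmmr at 0.65 ± 0.34 and the replication kinase subunit Dbf4 at 0.83 ± 0.35. The cyclin Ccnd1 was at 0.25 ± 0.17, with 95% limits of −0.11 and 0.60. None of 22 p53 target genes passed (median −0.21). The cell cycle inhibitor Cdkn1a was at 2.08, 2.11, 1.68, 2.19 and 1.84 in alpha-tocopherol rats and 2.24, 2.17, 2.31, 2.55 and 2.82 in NMBA rats, overlapping in alpha rat 4 and NMBA rat 2, with a difference of −0.44 ± 0.15 (limma adjusted p = 0.101). Gdf15 was at −0.53 ± 0.18.

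No member tested of the lists for carcinogen metabolism, antioxidant defence or vitamin E passed. With 3.77% of all genes called, lists of this size would hold few calls or none. None of 15 AhR and xenobiotic P450 genes were called (median −0.40, 13 below 0). Cyp2a3, a P450 that activates nitrosamines in rats, was at −0.78 ± 0.39 and Cyp1a1 at −0.79 ± 0.29. None of 30 Nrf2 antioxidant and glutathione genes were called (median −0.20, 24 below 0), the quinone reductase Nqo1 was at −0.13 ± 0.14 and the metallothionein Mt2A at −0.43 ± 0.16. None of 19 genes of vitamin E transport and metabolism (26 listed) were called (median −0.20). The tocopherol transfer protein Ttpa was at 0.11 ± 0.26 with 95% limits of −0.42 and 0.64, and lipoprotein lipase (Lpl) at 0.91 ± 0.35. The EGF receptor inhibitor Errfi1 (0.55 ± 0.18), the amino acid response gene Asns (−0.55 ± 0.18) and the inhibitor of metalloproteinases Timp4 (1.13 ± 0.44) did not pass either. The clock repressor Nr1d1 was at −5.55, −5.98, −1.32, −5.20 and −5.86 in alpha-tocopherol rats and −4.42, −2.02, −2.14, −4.91 and −4.13 in NMBA rats, so that the groups overlapped and alpha rat 3 was the highest of all 10. No gene passed among 33 immediate early genes other than Dusp1 and Trib1, nor among 16 circadian, 23 amino acid and unfolded protein response, 11 EGF receptor family, 15 metalloproteinase or 20 complement genes.

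The lists were also followed rat by rat. A list's score is the mean over its members tested of their deviation from the 25-array mean. The interferon score ran from −0.54 to 0.14 in alpha-tocopherol rats and from 0.21 to 0.94 in NMBA rats, without overlap. The CXCR3 score ran from −0.76 to 0.58 in alpha-tocopherol rats and from 0.70 to 2.44 in NMBA rats, likewise without overlap. Cytotoxic scores ran from −1.28 to 0.30 in alpha-tocopherol rats and from 0.07 to 1.72 in NMBA rats, and T cell scores from −0.74 to 0.35 in alpha-tocopherol rats and from 0.01 to 1.47 in NMBA rats. NMBA rat 4 was the NMBA rat inside the alpha-tocopherol range in both. Stromal markers moved within groups too: collagen and fibroblast scores ran from −0.74 to 0.48 in alpha-tocopherol rats and from −1.12 to 0.16 in NMBA rats, lowest in alpha rat 4 and NMBA rat 5. None of 16 fibroblast, 20 muscle, 11 endothelial, 13 nerve, 13 mast cell or 6 red cell genes tested were called, against 3.77% of all genes. Postn was at 0.85 ± 0.35. Gria2, well above background on only 3 of 5 alpha-tocopherol arrays, was at 1.46 ± 0.42 (limma adjusted p = 0.051). The part of these markers in the immune values was not tested.

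**Figure D4:**
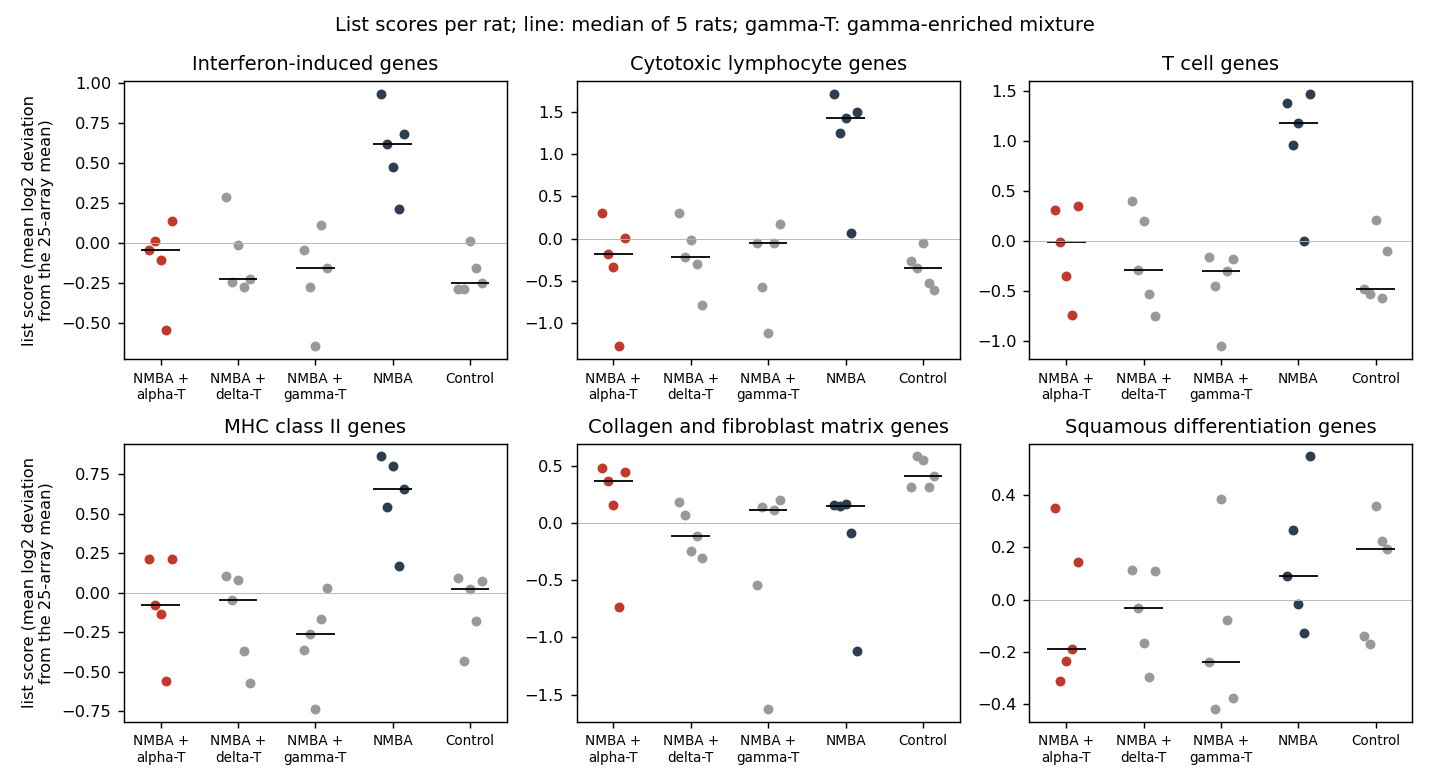
List scores (y axis, mean log2 deviation from the 25-array mean) are shown per rat for 6 lists, with groups from left to right NMBA plus alpha-tocopherol, plus delta-tocopherol, plus the gamma-enriched preparation, NMBA and Control, and a line at each group's median. Interferon scores of NMBA rats lie above those of all alpha-tocopherol rats, whereas cytotoxic and T cell scores overlap through NMBA rat 4, and squamous scores overlap throughout.

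Both groups were also compared with Control rats. The alpha-tocopherol rats shared no slide with Control rats, so slide and treatment cannot be told apart there, whereas NMBA rats 1 to 4 and Control rats 2 to 5 lay on slide 3. The comparisons share the alpha-tocopherol, NMBA or Control arrays, so values are only set side by side. In alpha-tocopherol rats against Control, 85 genes (0.689%) were called, 66 of them higher (0.535%), and in NMBA against Control 197 (1.6%), 168 of them higher (1.36%). Medians of the interferon list were 0.09 for alpha-tocopherol minus Control and 0.70 for NMBA minus Control, with 0 of 39 called in alpha-tocopherol and 9 of 39 called higher in NMBA rats. The cytotoxic list had medians of 0.11 for alpha-tocopherol minus Control, with 0 of 12 called, and 1.36 for NMBA minus Control, with 6 called higher. The T cell list had medians of 0.19 for alpha-tocopherol minus Control, with 0 of 20 called, and 1.24 for NMBA minus Control, with 10 called higher. Cxcl10 was 2.47 (limma adjusted p = 0.0283) for alpha-tocopherol minus Control and 4.36 for NMBA minus Control, both past the test. The hormone gene Gip, at −2.62 ± 0.62 in alpha-tocopherol rats, −1.62 ± 0.40 in NMBA rats and −7.21 ± 0.73 in Control rats (SD, n = 5), was 4.59 for alpha-tocopherol minus Control and 5.59 for NMBA minus Control. The alpha-tocopherol minus NMBA difference of Gip was −1.0 ± 0.34 and did not pass. Zbtb16 was −1.93 for alpha-tocopherol minus Control and −2.32 for NMBA minus Control, both past the test. Nfic was 1.64 (limma adjusted p = 0.0103) for alpha-tocopherol minus Control and −0.88 for NMBA minus Control, which did not pass. Trib1 was 1.11 for alpha-tocopherol minus Control, past the test, and −0.63 for NMBA minus Control, which did not pass.

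Alpha-tocopherol was then compared with the other preparations, 2 pairs in all, with p-values adjusted over both. Alpha-tocopherol is fully methylated on its chromanol head, whereas delta- and gamma-tocopherol lack some of those methyl groups. Matched doses cannot be shown, since the labels give none. Against delta-tocopherol, limma called 0 of 12343 genes (0%), with 599 at an unadjusted p under 0.05, and likewise 0, with 341 at an unadjusted p under 0.05, among rats of slide 1 alone, which holds alpha rats 1 to 5 and delta rats 1 to 3. For this pair alone the smallest limma adjusted p of any gene was 0.792. Adjusting over both pairs gave 2 genes, because the low p-values of the gamma-enriched pair loosen the threshold for this pair. Both were named after their values were seen, and neither was well above background on any delta-tocopherol array. Mfsd6l was at least 1.66-fold higher (limma adjusted p = 0.0312; above background on 3 alpha-tocopherol arrays) and the olfactory receptor Or13g1 at least 1.93-fold higher (limma adjusted p = 0.0487; above background on 4 alpha-tocopherol arrays). Differences between alpha- and delta-tocopherol rats were −0.03 for Cxcl10 (95% limits −1.12 and 1.07), 0.37 for Cxcl9 (−0.68 and 1.43) and −1.58 for Zbtb16 (−2.46 and −0.70). Zbtb16 did not pass (limma adjusted p = 0.112 over both pairs and 0.849 for this pair alone). For both chemokines the limits take in differences of 1 unit, so the preparations are not shown to act alike on them.

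Against the gamma-enriched preparation, limma called 209 genes (1.69%), 192 higher (1.56%) and 17 lower (0.138%), and 125 with adjustment over both pairs. Of the 192 higher genes, 135 were below background on some of the 10 arrays and 77 on all gamma-enriched arrays, whereas all 17 lower genes were well above background on all 25 arrays. With probes well above background on every array, 9 genes were called. Leaving out alpha rat 4 gave 650 calls and leaving out alpha rat 5 gave 24. Alpha-tocopherol minus gamma-enriched differences were −1.86 ± 0.37 for Stfa3l1 (limma p adjusted over both pairs = 0.0301), −1.17 ± 0.21 for C1h19orf47 (0.0200), −1.80 ± 0.42 for Gstm6 (0.0492) and −1.16 ± 0.27 for Neurl1 (0.0487). Gipr (−1.35), Per2 (2.73), a clock repressor, and Zbtb16 (−1.71) passed for this pair but not over both (0.0593, 0.0519 and 0.0712). Rasd1 (1.41 ± 0.31), Dusp1 (1.21 ± 0.21) and Edem3 (1.30 ± 0.30) were higher in alpha-tocopherol rats, each past the test over both pairs. Or4a47, Sslp1l1, Or11g24 and Tnni3k were at least 3.44-, 3.50-, 4.08- and 2.90-fold higher, and none was well above background on a gamma-enriched array. They were so on 5, 4, 5 and 4 alpha-tocopherol arrays and on 0, 1, 2 and 1 delta-tocopherol arrays. A probe was tested if well above background on at least 5 arrays, so the alpha-tocopherol arrays counted toward their entry. These differences rest on readings near background. All these calls were lost with slide as a fixed block. The alpha-tocopherol and gamma-enriched rats lay on slides 1 and 2 and shared none, so slide and preparation cannot be told apart within these arrays.

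The 3 preparations were also set side by side against the same NMBA rats. Cxcl10 was −1.89 ± 0.53 in alpha-tocopherol rats, −1.86 ± 0.53 in delta-tocopherol and −2.20 ± 0.53 in gamma-enriched rats. Gzmb was −2.18 ± 0.46 in alpha-tocopherol, −1.999 ± 0.46 in delta-tocopherol and −2.10 ± 0.46 in gamma-enriched rats. Isg15 was −1.81 ± 0.30 in alpha-tocopherol, −1.30 ± 0.30 in delta-tocopherol and −1.48 ± 0.30 in gamma-enriched rats. All of these differences are below 0. The direct difference between alpha-tocopherol and gamma-enriched rats was 0.31 for Cxcl10, with 95% limits of −0.78 and 1.40. Zbtb16 was 0.39 ± 0.42 in alpha-tocopherol, 1.97 ± 0.42 in delta-tocopherol and 2.10 ± 0.42 in gamma-enriched rats relative to NMBA rats. Nfic was 2.52 ± 0.30 in alpha-tocopherol, 1.45 ± 0.30 in delta-tocopherol and 1.54 ± 0.30 in gamma-enriched rats, all against NMBA readings near background. Its direct differences were 1.07 for alpha-tocopherol minus delta-tocopherol and 0.98 for alpha-tocopherol minus gamma-enriched rats. Neither passed (limma p adjusted over both pairs = 0.138 and 0.192).

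**Figure D5:**
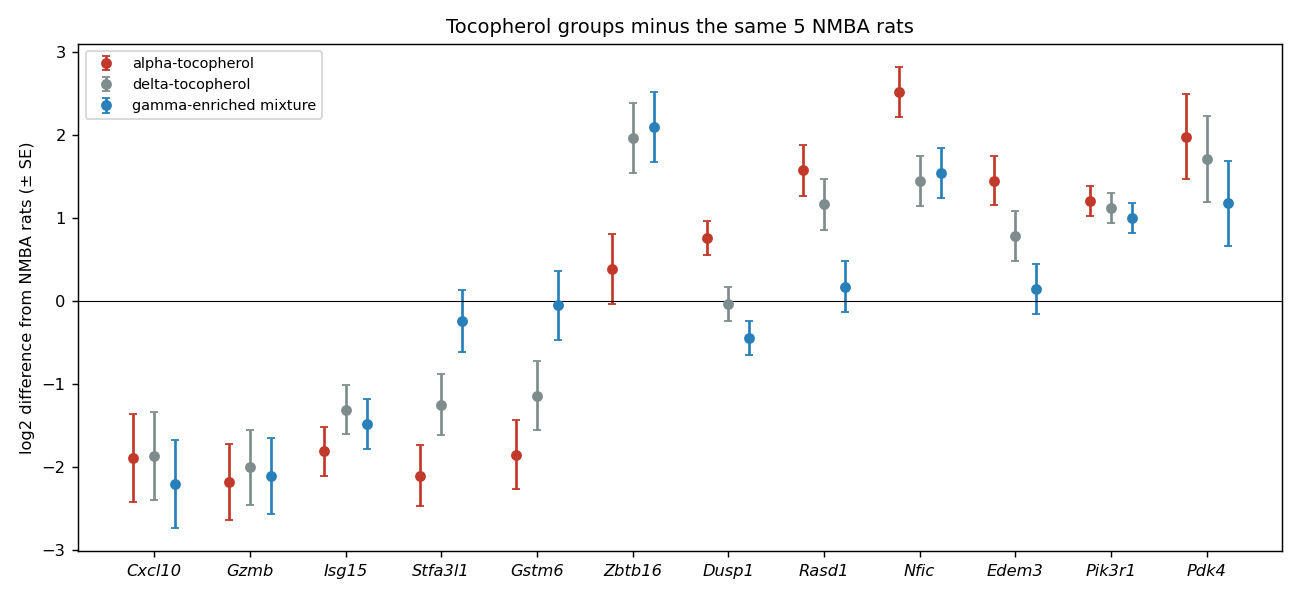
The log2 difference from the same 5 NMBA rats (y axis, ± SE of the fit) is shown for 12 genes in the alpha-tocopherol, delta-tocopherol and gamma-enriched groups. Cxcl10, Gzmb and Isg15 lie well below 0 in each group, whereas Zbtb16 is near 0 for alpha-tocopherol (0.39) and near 2 for the others.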

How the data were processed

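RNA of esophageal epithelium from 25 rats was hybridised to 1-colour Cy3 Agilent arrays, with 5 groups of 5 rats. Per the labels' protocols, RNA was extracted with TRIzol and amplified linearly. Intensities were extracted by the authors with Agilent Feature Extraction 11.5.1.1 per the file headers (10.7 per the submitters' processing notes). The array design was annotated on rn4 per the file headers. The authors' deposited log2 value table was centred on each array's 75th percentile and served as an alternative.

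Processed intensities were taken as log2 and reduced by the array's 75th percentile. Spots marked as outliers were left out, as were 70 probes with no other spot, and spots of a probe were averaged. Of 30367 probes, 18355 had 1 gene symbol and 12012 had none. Names were updated through RefSeq (GRCr8). Probes well above background on at least 5 arrays were kept, and the kept probe with the highest mean stood for its gene (2035 genes had several), which gave 12343 of 15437 genes. At least N-fold bounds compare the brighter group's mean with, per array, the higher of the lowest signal well above background and the dim probe's own. These bounds hold for the main processing only. No spot was saturated.

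Groups were fitted with limma 3.58.1 (lmFit, eBayes; R 4.3.3) on all 25 arrays (20 residual degrees of freedom), with two-sided tests and Benjamini-Hochberg adjustment over all genes tested. Each rat gave 1 array, and the number of arrays limits the precision. Alternatives were normexp (offset 50), quantile and median scaling, filters, probe means, slide and rat number as blocks, the fit's arrays, the variance model and leaving out each rat. Normexp used the median spot signal, because the files used here hold no mean signal. The fit was tested on simulated data.

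Named genes were, for alpha-tocopherol against NMBA, up to 12 called genes in each direction with the largest difference and no overlap, up to 4 called members of each gene list (up to 2 members where none was called), and a short set of genes always given. For the other pairs they were up to 5 called genes in each direction without overlap. Provisional symbols were not named. The comparison, its gene lists and these rules were chosen with earlier results of these data known. The result of 1 gene is not reported here.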

Additional observations from a re-analysis of the deposited data

Results flagged for a closer look

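Within groups of 5, the sample farthest out was compared with the other 4 by Dixon's test (critical value 0.71) for the named genes and list scores. Of 250 groups tested, 25 (10%) had such a sample, where chance gives about 1 in 20. Among genes, alpha-tocopherol rats gave most of them. Ash1l in alpha-tocopherol rat 5 was −2.59 (the other 4 −1.67 to −1.31). Ccl5 in alpha-tocopherol rat 4 was −4.14 (the other 4 −2.33 to −1.67). Cd8b in alpha-tocopherol rat 1 was −5.31 (the other 4 −6.72 to −6.32). Gstm6 in alpha-tocopherol rat 1 was −4.71 (the other 4 −2.98 to −2.59). Gzmb in alpha-tocopherol rat 4 was −6.12 (the other 4 −4.71 to −4.36). Mt2A in alpha-tocopherol rat 1 was 3.01 (the other 4 2.51 to 2.59). Nr1d1 in alpha-tocopherol rat 3 was −1.32 (the other 4 −5.98 to −5.20). Pdk4 in alpha-tocopherol rat 5 was −0.83 (the other 4 −3.46 to −2.76). Pds5a in alpha-tocopherol rat 4 was −4.05 (the other 4 −5.61 to −5.21). Ptger4 in alpha-tocopherol rat 2 was −5.63 (the other 4 −4.93 to −4.70). Stfa3l1 in alpha-tocopherol rat 1 was −5.92 (the other 4 −4.22 to −3.68). Trib1 in alpha-tocopherol rat 2 was −4.87 (the other 4 −3.88 to −3.56). Vom2r48 in alpha-tocopherol rat 1 was −8.50 (the other 4 −6.98 to −6.70).

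NMBA rats gave fewer. Asns in NMBA rat 5 was −0.045 (the other 4 −0.77 to −0.56). Clec2e in NMBA rat 5 was −6.64 (the other 4 −5.53 to −5.21). Pik3r1 in NMBA rat 1 was −1.06 (the other 4 −1.49 to −1.44). RT1-DMb in NMBA rat 4 was 1.55 (the other 4 2.41 to 2.75). Among list scores, alpha rat 4 and NMBA rat 5 were low in both stromal lists. Circadian score in alpha-tocopherol rat 3 was 0.58 (the other 4 −0.13 to 0.00). Collagen and fibroblast score in alpha-tocopherol rat 4 was −0.74 (the other 4 0.16 to 0.48). Endothelial score in alpha-tocopherol rat 4 was −0.79 (the other 4 0.039 to 0.36). Cytotoxic score in NMBA rat 4 was 0.067 (the other 4 1.26 to 1.72). Vitamin E score in NMBA rat 5 was −0.18 (the other 4 0.14 to 0.22). Glycolysis and hypoxia score in NMBA rat 3 was 0.22 (the other 4 0.015 to 0.068). Collagen and fibroblast score in NMBA rat 5 was −1.12 (the other 4 −0.088 to 0.16). Endothelial score in NMBA rat 5 was −0.56 (the other 4 0.11 to 0.28). No cause of these deviations was tested.

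Differences between alpha-tocopherol and gamma-enriched rats passed limma's test of the difference itself for the 14 genes below and for Or13g1, named after its values were seen and at least 2.23-fold higher (limma p adjusted over both pairs = 0.0167). C1h19orf47 was −1.17 (alpha-tocopherol minus NMBA −1.67, gamma-enriched minus NMBA −0.50, limma adjusted p = 0.00998). Dusp1 was 1.21 (alpha-tocopherol minus NMBA 0.77, gamma-enriched minus NMBA −0.44, limma adjusted p = 0.0097). Edem3 was 1.30 (alpha-tocopherol minus NMBA 1.46, gamma-enriched minus NMBA 0.15, limma adjusted p = 0.0247). Gipr was −1.35 (alpha-tocopherol minus NMBA −1.63, gamma-enriched minus NMBA −0.27, limma adjusted p = 0.03). Gstm6 was −1.80 (alpha-tocopherol minus NMBA −1.85, gamma-enriched minus NMBA −0.048, limma adjusted p = 0.025). Neurl1 was −1.16 (alpha-tocopherol minus NMBA −1.16, gamma-enriched minus NMBA 0.00, limma adjusted p = 0.0247). Or11g24 was 2.14 (alpha-tocopherol minus NMBA −0.016, gamma-enriched minus NMBA −2.15, limma adjusted p = 0.0153).

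The other 7 were as follows. Or4a47 was 2.57 (alpha-tocopherol minus NMBA 0.95, gamma-enriched minus NMBA −1.62, limma adjusted p = 0.00836). Per2 was 2.73 (gamma-enriched minus NMBA −1.63, limma adjusted p = 0.0264). Rasd1 was 1.41 (alpha-tocopherol minus NMBA 1.58, gamma-enriched minus NMBA 0.18, limma adjusted p = 0.019). Sslp1l1 was 2.40 (alpha-tocopherol minus NMBA −0.31, gamma-enriched minus NMBA −2.71, limma adjusted p = 0.019). Stfa3l1 was −1.86 (alpha-tocopherol minus NMBA −2.10, gamma-enriched minus NMBA −0.24, limma adjusted p = 0.015). Tnni3k was 2.13 (alpha-tocopherol minus NMBA 0.10, gamma-enriched minus NMBA −2.03, limma adjusted p = 0.0097). Zbtb16 was −1.71 (alpha-tocopherol minus NMBA 0.39, gamma-enriched minus NMBA 2.10, limma adjusted p = 0.0366).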

How the results depend on the processing

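Of 57 named genes called between alpha-tocopherol and NMBA rats, 26 passed in all 10 fits that left out a rat and 18 in fewer than 5. The count of genes ran from 193 to 463 over those fits, against 465. Leaving out NMBA rat 3 lost 24 named calls, alpha rat 4 lost 23, NMBA rat 1 lost 22, and each of the other 7 rats lost 8 to 18. No named call was lost with the deposited values, no filter, an intensity trend or slide as a random block (695 genes). Normexp lost 9, quantile scaling 5, the array median 3, the probe mean 2 and the fit on the compared arrays 31. Genes called were 2155 without a filter on dim probes, 120 on the compared arrays alone and 1 with slide as a fixed block, where no named call passed and the median of all genes moved to 0.15. The rat numbers are only shared labels: deviations of same-numbered rats correlated at −0.06 to 0.41, 3 of 10 rats best with their own number, and the replicate block gave 305 genes and lost 8 named calls.

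With slide as a fixed block the sign turned for Cdkn1a (0.48), Dbf4 (−0.20), Defal1 (0.62), Gip (0.99), Gria2 (−0.070), Mki67 (1.40), Mt2A (0.32), Nfkbia (−0.12), Nqo1 (0.19), Pkm (0.041), Ptger4 (−0.17) and Tgm1 (0.040). The link between the groups in that fit runs through Control rat 1, the only Control rat on slide 2. With that block, list medians moved to −0.99 for interferon, −1.08 for CC chemokine and −1.11 for MHC class II genes. The cytotoxic median was −1.11 with normexp. Mki67 was 0.072 with the probe mean, and Nqo1 0.093 with normexp and 0.025 with quantile scaling. Leaving out a rat gave −0.065 to 0.16 for Nfkbia and −0.013 to 0.20 for Ttpa. Against the gamma-enriched preparation, counts were 95 with normexp, 9 with probes well above background on all arrays, 410 with slide as a random block, 0 with slide as a fixed block, 130 with the replicate block and 24 to 650 without 1 rat. Against delta-tocopherol limma called 0 genes under every setting run, with p adjusted for that pair alone. The cause of these shifts was not tested. Low signal limits genes near background, and 5 rats a group and the slide layout limit the rest.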
